A study of Mus musculus with 2 samples.

Results

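The genes described here are 9 members of the mouse hedgehog pathway: the ligand genes Shh and Ihh, the receptor gene Ptch1, the gene of the ligand-binding inhibitor Hhip, the signal transducer gene Smo, the Gli inhibitor gene Sufu, and the transcription factor genes Gli1, Gli2 and Gli3. They were chosen by symbol, and all 9 were found once each among the 43346 mouse genes of the deposited tables. The tissue was lung of B6NCrl mouse embryos at embryonic day 14.5, and its RNA was sequenced in 1 group of 2 libraries, numbered by the labels as biological replicates 2 and 1. The labels name no mutation, treatment or second condition, so the data answer how strongly each gene was represented in this tissue and how far the libraries stood apart. Each sample is described both as the lung of pup 1 and as pooled males and females, with the same donor entry for both, so how many animals gave a library is unclear.

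In hedgehog signalling, a secreted ligand binds Patched, a membrane receptor that otherwise keeps the membrane protein Smoothened inactive. Active Smoothened, which collects in the primary cilium, frees the Gli transcription factors from their inhibitor Sufu and from cleavage into repressors, and Gli1, Ptch1 and Hhip are themselves transcribed in response. In the developing lung Shh is made by the epithelium and is received by the mesenchyme around it, where it acts in branching growth and smooth muscle formation.

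Depth was close in the libraries, with summed expected counts (the deposited estimate of reads per gene, which need not be whole) of 34535168 in replicate 2 and 33601136 in replicate 1. Spike-in RNA took 3.96% of counts in replicate 2 and 4.94% in replicate 1. Levels are given in TPM, the deposited unit that divides by effective length and scales every library to the same sum, and a gene is called detected at a TPM of 1 or more in both libraries. The tissue label was met by its markers: all 8 lung epithelial, 8 lung mesenchymal, 5 smooth muscle and 4 endothelial markers were detected. Summed TPM of the epithelial markers was 2935 in replicate 2 and 2877 in replicate 1, of the mesenchymal markers 2607 and 2549 in the same order, of the smooth muscle markers 1082 and 1060, and of the endothelial markers 210.2 and 213. Heart muscle markers summed to 109.4 TPM in replicate 2 and 565.8 in replicate 1, and all 6 were at least 2-fold lower in replicate 2 by the adjusted binomial test used for the members, with a median log2 ratio of -4.01. Liver markers summed to 7.12 TPM in replicate 2 and 3.1 in replicate 1, and 2 of the 3 tested were at least 2-fold higher in replicate 2 by the same test. Neural markers summed to 3.84 TPM in replicate 2 and 5.21 in replicate 1. In such bulk tissue, fewer cells of a type and less RNA per cell cannot be told apart.

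Of the 9 genes, 8 were detected, beside 58.8% of the 21474 protein-coding genes measured, and Ihh was not. The median member stood at 22.88 TPM, against 4.10 TPM for all protein-coding genes. The ligand-binding inhibitor Hhip, the transducer Smo and the receptor Ptch1 were the highest of the 9, the Gli genes and Sufu stood between, and the ligand Shh was the lowest detected member. The detected members spanned 12.5-fold from Shh to Hhip.

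**Figure D1:**
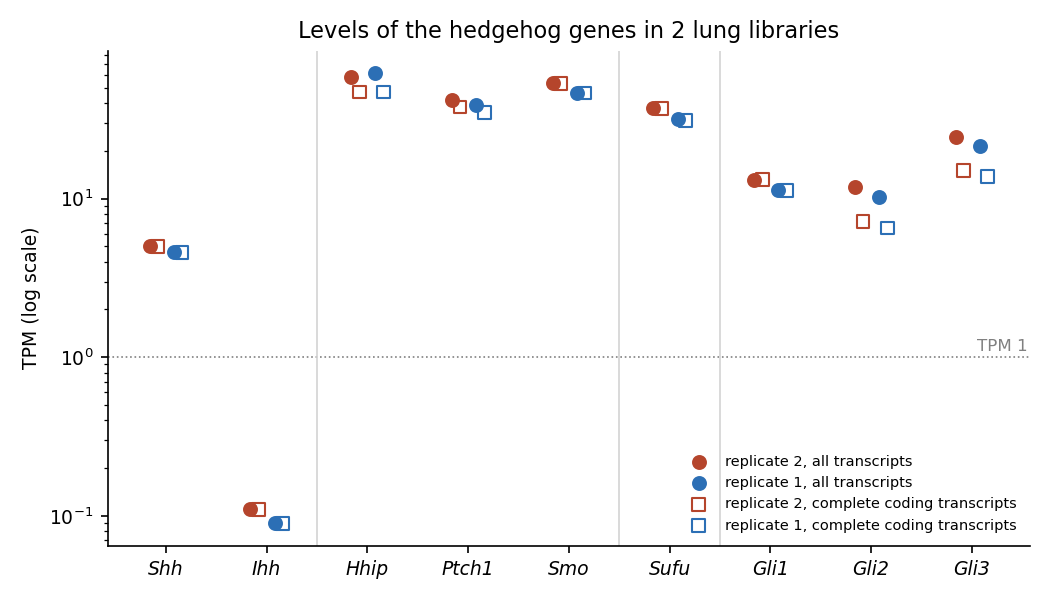
TPM of each of the 9 genes on a log axis, grouped by role, with filled circles for all transcripts and open squares for complete protein-coding transcripts in each library. Circles of the same gene lie close together, squares lie below circles for Hhip, Ptch1, Gli2 and Gli3, and Ihh, at 0.11 TPM in replicate 2 and 0.09 in replicate 1, lies far below Shh at 4.99 and 4.58 TPM in the same libraries.

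Shh, which encodes the Sonic hedgehog ligand (ENSMUSG00000002633.3, GRCm38 chr5:28456815-28467256, minus strand), had 4.99 TPM in replicate 2 and 4.58 in replicate 1, from 290 and 265 rounded counts in the same libraries. Its mean of 4.79 ± 0.29 TPM (SD, n = 2) lay above 51.36% of all protein-coding genes measured. Only 58.8% of those genes were detected, so the ligand gene stood in the lower part of the detected ones. Ihh, which encodes Indian hedgehog, a ligand known best from cartilage and gut (ENSMUSG00000006538.10, chr1:74945315-74951672, minus strand), had 6 counts in replicate 2, with an exact 95% Poisson interval of 2.2 to 13.1, and 5 counts in replicate 1, with an interval of 1.62 to 11.7. These intervals cover counting error only. In TPM this was 0.11 in replicate 2 and 0.09 in replicate 1, where 3 counts correspond to 0.055 and 0.054 TPM in the same libraries, so the gene lay just above the limit that a count of 0 allows. The posterior mean TPM, the deposited second estimate, put Ihh higher, at 0.155 TPM on average. Of 5 cartilage markers 2 were detected, Col2a1 at 28.3 TPM in replicate 2 and 23.0 in replicate 1 and Col9a1 at 6.2 and 4.51 TPM. Matn1 had 0 counts in both libraries, and the cartilage markers summed to 34.8 TPM in replicate 2 and 28.01 in replicate 1. None of 4 gut markers was detected, with a summed TPM of 1.03 in replicate 2 and 0.63 in replicate 1. The part of these tissues in the Ihh counts was not tested.

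Dhh, the Desert hedgehog gene and the remaining mammalian ligand gene, was set beside them. It had 1.26 TPM in replicate 2 and 1.35 in replicate 1. Shh therefore carried 78.5% of the summed ligand TPM in replicate 2 and 76.1% in replicate 1, Dhh 19.8% and 22.4% in the same libraries, and Ihh 1.73% and 1.495%. As a limited check on whether reads could pass between Shh and Ihh, their coding sequences were compared for exact identity, with no mismatch allowed. The longest identical run was 17 bases, shorter than the 99 nt that the deposited tables subtract from a transcript to give its effective length. The run lies in the part that encodes the amino-terminal signalling part of the protein and is shown in capitals, as GRCm38 coding sequence on the minus strand of each gene, for Shh at chr5:28461513-28461559 and for Ihh at chr1:74948495-74948541.
Shh: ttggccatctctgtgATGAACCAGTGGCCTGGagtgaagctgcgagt
Ihh: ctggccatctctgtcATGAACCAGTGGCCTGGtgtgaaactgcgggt

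Shh has neighbours on the opposite strand, and the sources used here do not say whether counting used strand. The long noncoding gene Gm26894 shares 883 nt of its span with Shh and had 3.21 TPM in replicate 2 and 4.38 in replicate 1, and the antisense gene 9530036O11Rik, which spans 8983 nt of Shh, had 0.39 TPM in replicate 2 and 0.46 in replicate 1. In counts, Shh had 289.95, Gm26894 74.4 and 9530036O11Rik 24.65 in replicate 2. The same genes had 264.69, 101.03 and 29.28 counts in replicate 1. None of these counts is whole, but they add up to a whole number in each library. Some reads were thus divided between Shh and genes on the opposite strand. The deposited posterior SD of the Shh count was 3.72 counts in replicate 2 and 3.85 counts in replicate 1, small beside the count itself.

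Ptch1, which encodes the receptor that ligand switches off (ENSMUSG00000021466.7, chr13:63508328-63573598, minus strand), had 41.9 TPM in replicate 2 and 39.0 in replicate 1, a mean of 40.5 ± 1.99 TPM (SD, n = 2). It stood 8.39 times above Shh in replicate 2 and 8.52 times above it in replicate 1. Hhip, which encodes a membrane-anchored protein that binds hedgehog ligands and keeps them from the receptor (ENSMUSG00000064325.3, chr8:79965851-80058006, minus strand), had 58.0 TPM in replicate 2 and 61.6 in replicate 1. It was the highest of the 9 genes, at 59.8 ± 2.54 TPM, above 87.84% of protein-coding genes. Hhip stood 11.6 times above Shh in replicate 2 and 13.4 times above it in replicate 1. Ptch1 and Hhip were thus both at several times the level of Shh in each library.

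Smo, which encodes Smoothened (ENSMUSG00000001761.6, chr6:29735503-29761365, plus strand), had 53.4 TPM in replicate 2 and 46.3 in replicate 1, a mean of 49.9 ± 5.02 TPM (SD, n = 2). The pseudogene Gm13717, which lies inside Smo on the same strand, had 1.85 TPM in replicate 2 and 1.69 in replicate 1. Sufu, which encodes the protein that holds Gli factors in the cytoplasm (ENSMUSG00000025231.12, chr19:46396896-46488804, plus strand), had 37.0 TPM in replicate 2 and 31.7 in replicate 1, a mean of 34.4 ± 3.80 TPM. It exceeded Gli3, the highest of the Gli genes, by 1.52 times in replicate 2 and 1.48 times in replicate 1, and by 2.44 and 2.25 times in the same libraries where TPM was summed over complete protein-coding transcripts alone.

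Among the transcription factors Gli3 was the highest. Gli3, which is the main source of Gli repressor (ENSMUSG00000021318.11, chr13:15463235-15730026, plus strand), had 24.4 TPM in replicate 2 and 21.4 in replicate 1. Gli1, an activator whose own transcription is a standard readout of hedgehog signalling (ENSMUSG00000025407.6, chr10:127329882-127341974, minus strand), had 13.1 TPM in replicate 2 and 11.3 in replicate 1. Gli2, the main activator upon ligand binding (ENSMUSG00000048402.10, chr1:118834132-119053619, minus strand), had 11.8 TPM in replicate 2 and 10.3 in replicate 1. Means were 22.9 ± 2.16, 12.2 ± 1.30 and 11.0 ± 1.07 TPM for Gli3, Gli1 and Gli2 (SD, n = 2). Of the TPM summed over the Gli genes, Gli3 held 49.5% in replicate 2 and 49.8% in replicate 1, Gli1 26.6% and 26.3% in the same libraries, and Gli2 23.9% in both. On TPM over all transcripts, the division among the Gli genes thus differed by less than 1 percentage point between the libraries. On complete protein-coding transcripts alone, given below, the Gli1 share differed by more than that.

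Gli2 and Gli3 are close relatives, and the longest identical run between their coding sequences was 25 bases, against 23 bases between Gli1 and Gli2 and 14 bases between Gli1 and Gli3. Reads that align with mismatches could be shared over longer stretches, which was not checked. The run between Gli2 and Gli3 is shown in capitals as the longest of the exact runs. It is given as GRCm38 coding sequence, for Gli2 at chr1:118845997-118846051 on the minus strand and for Gli3 at chr13:15713514-15713568 on the plus strand.
Gli2: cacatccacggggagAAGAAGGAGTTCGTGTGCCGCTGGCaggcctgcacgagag
Gli3: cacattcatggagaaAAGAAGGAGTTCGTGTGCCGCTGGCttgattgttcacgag

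Ordered by mean TPM, the genes ran Hhip, Smo, Ptch1, Sufu, Gli3, Gli1, Gli2, Shh and Ihh. Neighbours in this order were taken to differ beyond their spread where the ranges of their values in the libraries did not overlap, which held for 7 of 8 neighbouring pairs. The exception was Gli1 and Gli2, whose ranges overlapped, and their order turned round with posterior mean TPM, which put Gli2 at 12.0 TPM and Gli1 at 11.9 TPM. The step from Shh to Ihh was 47.9-fold between means and that from Gli2 to Shh 2.3-fold on the deposited TPM. The step from Hhip to Smo was 1.2-fold and turned round on complete protein-coding transcripts alone and with the longest transcript's length, which put Smo first.

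**Figure D2:**
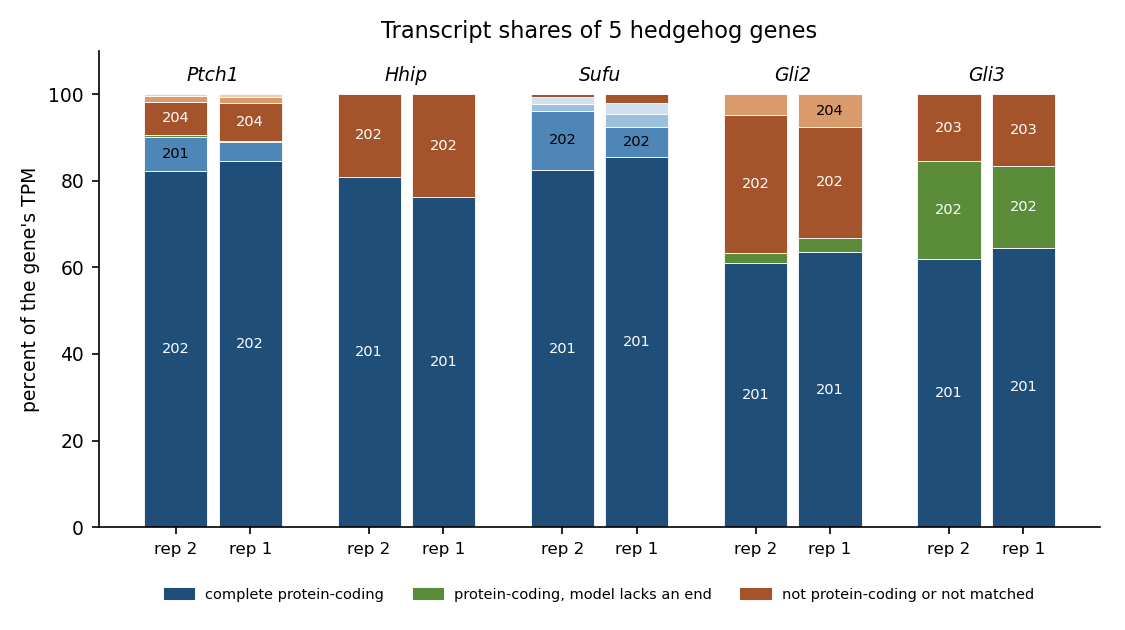
Percent of each gene's TPM on its transcripts in replicate 2 and replicate 1, for the 5 members with more than 1 transcript above 0, coloured by transcript type and labelled with the transcript number. The leading transcript of Ptch1 holds 82.2% in replicate 2 and 84.5% in replicate 1, and that of Gli2 holds 61.0% and 63.6% in the same libraries.

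Shh, Smo and Gli1 are each given a single transcript in the deposited tables, so their gene levels are transcript levels. For Hhip, Hhip-201, the transcript with the full coding sequence, held 80.9% of TPM in replicate 2 and 76.2% in replicate 1, and its level was 46.9 TPM in both. In deposited TPM, the difference in Hhip between the libraries lay on Hhip-202, a short transcript with no coding sequence. It had 11.1 TPM from 201.2 counts in replicate 2 and 14.7 TPM from 265 counts in replicate 1. The log2 ratio of Hhip given below uses scaled counts and was not divided by transcript. Gli2-201, the full coding transcript of Gli2, held 61.0% of TPM in replicate 2 and 63.6% in replicate 1. Gli2-202, a noncoding transcript of 367 nt, held 31.8% in replicate 2 and 25.5% in replicate 1 from 22.5 and 15.6 counts in the same libraries. A large part of the gene-level TPM of Gli2 thus rested on a few reads over a short transcript. Gli3-201, with the full coding sequence, held 61.9% in replicate 2 and 64.5% in replicate 1, Gli3-202, whose annotated coding sequence is incomplete, held 22.6% and 18.8% in the same libraries, and Gli3-203, with a retained intron, held 15.5% and 16.7%.

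Summed over complete protein-coding transcripts alone, Gli3 had 15.1 TPM in replicate 2 and 13.8 in replicate 1, Gli1 13.1 and 11.3 TPM in the same libraries, and Gli2 7.18 and 6.52 TPM. On this scale, a choice made after the values were seen, the mean was lower by more than 1.5 times for Gli2, at 6.85 TPM, and for Gli3, at 14.5 TPM. Gli1 then held 37.1% of the Gli sum in replicate 2 and 35.7% in replicate 1, Gli2 20.3% and 20.7% in the same libraries, and Gli3 42.7% and 43.6%. Hhip had 46.9 TPM in both libraries on this scale, within the range of Smo at 53.4 TPM in replicate 2 and 46.3 in replicate 1, so the top 2 genes no longer differed beyond their spread. Ptch1, at 37.8 TPM in replicate 2 and 34.7 in replicate 1, then also overlapped Sufu, at 36.8 TPM in replicate 2 and 31.0 in replicate 1, and 6 of 8 neighbouring pairs stayed apart.

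Ptch1 was assigned mainly to a transcript that starts inside the gene. Ptch1-202 (7002 nt, 24 exons) held 82.2% of Ptch1 TPM in replicate 2 and 84.5% in replicate 1, which was 34.4 TPM in replicate 2 and 33.0 in replicate 1. Ptch1-201 (7725 nt, 23 exons), the transcript with the longest coding sequence, held 7.93% in replicate 2 and 4.39% in replicate 1. Its count was 567 with a posterior SD of 85.5 in replicate 2 and 291 with a posterior SD of 64.4 in replicate 1. Ptch1-204, annotated as a target of nonsense-mediated decay, held 7.62% in replicate 2 and 8.77% in replicate 1. The start of Ptch1-202 lies 1200 bases downstream of that of Ptch1-201, and the start of Ptch1-204 lies 7725 bases upstream of it.

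**Figure D3:**
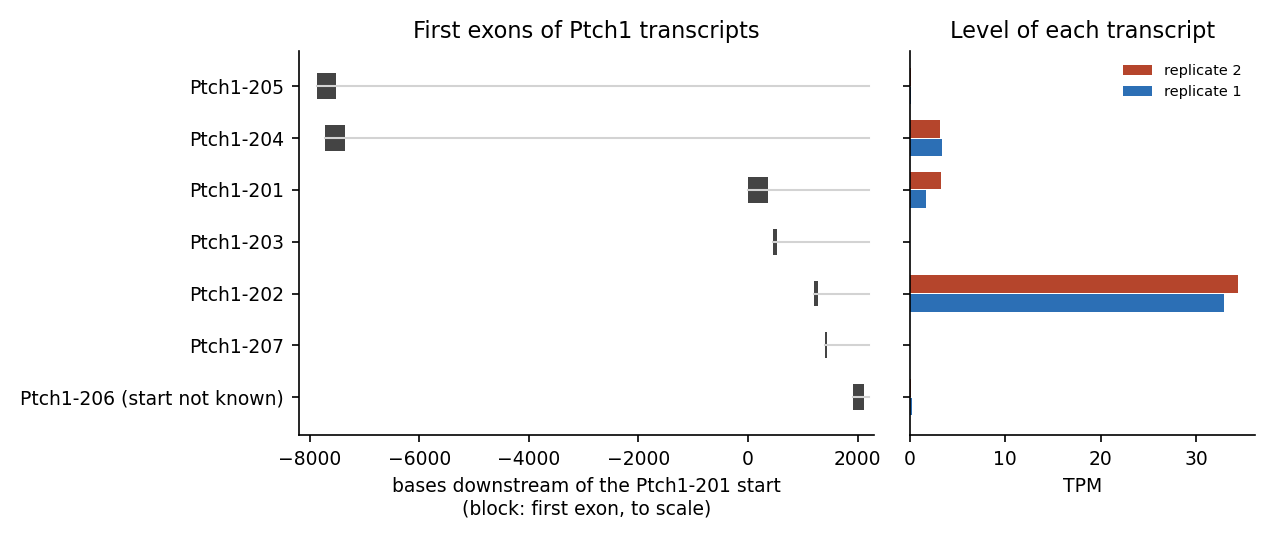
Left, position of the first exon of each annotated Ptch1 transcript in bases downstream of the start of Ptch1-201, drawn to scale. Right, TPM of the same transcripts in replicate 2 and replicate 1: Ptch1-202, whose first exon of 78 nt lies 1200 bases downstream, had 34.4 and 33.0 TPM, and each of the others was under 4 TPM.

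The annotated coding sequence of Ptch1-202 is the end of that of Ptch1-201, 411 bases or 137 codons shorter, with its start codon in exon 3 and not in exon 1. The transcripts differ in a second place, since Ptch1-202 also splices out 419 nt (chr13:63511113-63511531) that lie past the stop codon and are kept in the last exon of Ptch1-201. The deposited share therefore rests on reads at both places, and which of them carried it cannot be read from these tables. The first 60 coding bases of each are shown with the start codon in capitals, since they mark where the annotated proteins part, both on the minus strand of GRCm38, for Ptch1-202 at chr13:63548067-63548126 and for Ptch1-201 at chr13:63565461-63565520.
Ptch1-202: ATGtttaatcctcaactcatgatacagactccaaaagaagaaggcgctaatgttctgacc
Ptch1-201: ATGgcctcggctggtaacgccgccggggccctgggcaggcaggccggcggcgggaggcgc

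Sufu-201 held 82.5% of Sufu TPM in replicate 2 and 85.4% in replicate 1. Sufu-202 held 13.6% in replicate 2 and 7.01% in replicate 1, from 185 counts with a posterior SD of 27.3 in replicate 2 and 81.6 counts with a posterior SD of 18.4 in replicate 1. The coding sequence of Sufu-202 has 3 more bases than that of Sufu-201, at the start of exon 7, and its last exon is 194 nt against 2950 nt in Sufu-201, so this share too rests on more than 1 difference. The coding bases across the exon join are shown with the added bases in capitals. Exon 7 starts at chr19:46453159 in Sufu-202 and at chr19:46453162 in Sufu-201 and ends at 46453315 in both, on the plus strand of GRCm38.
Sufu-202: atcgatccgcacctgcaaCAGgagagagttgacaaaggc
Sufu-201: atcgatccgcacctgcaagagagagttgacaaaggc

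Counts of the libraries were then compared by the exact binomial test, two-sided, on rounded counts scaled by TMM and adjusted over 14870 genes by the Benjamini-Hochberg method. A gene was called at an adjusted p under 0.05 and a ratio of at least 2-fold, and the test compares these 2 libraries, with no replicate check. Ihh was too low to be tested. None of the 8 tested members was called, where 1.14% of all genes tested were (169 genes). None was called higher, against 53 or 0.356% of all genes, and none lower, against 116 or 0.78%. Without a minimum fold 4 of 8 members passed, where 22.5% of all genes tested did, and 5 of 8 were at an unadjusted p under 0.05. Of the 6 members with a mean of 1000 counts or more, these same 4 passed, where 29.6% of all genes at that depth did. The edgeR exact test with the common dispersion called none of the 8 and gave each an adjusted p of 1, so none passed it without a minimum fold either. That dispersion, a coefficient of variation of 9.58%, was estimated from these same 2 libraries taken as 1 group. Their difference thus counted as noise, and the edgeR result says little about small ratios.

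The members' ratios were small. Log2 ratios of replicate 2 over replicate 1 ran from -0.08 to 0.16, with 7 genes above 0 and Hhip below it, except that all 8 lay above 0 when libraries were scaled by the spike-in sum. Under that scaling the median of all genes tested moved to 0.34 and the members lay between 0.27 and 0.50, with Hhip the lowest. With TMM, 49.6% of all genes tested lay above 0 and 97.4% within 2-fold, and their median was -0.00, beside 0.08 for the members. The heart muscle markers, in contrast, were 109.4 TPM in sum in replicate 2 and 565.8 in replicate 1, and the part of heart tissue in the members' ratios was not tested.

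Those past the test without a minimum fold were Smo, with 4399 counts in replicate 2 and 3800 in replicate 1 (log2 ratio 0.15, exact 95% interval 0.09 to 0.21, binomial adjusted p = 6.55e-05), and Sufu, with 3273 counts in replicate 2 and 2837 in replicate 1 (0.14, 0.07 to 0.22, binomial adjusted p = 0.00122). Gli3 had 3204 counts in replicate 2 and 2874 in replicate 1 (0.09, 0.02 to 0.17, binomial adjusted p = 0.0493). Hhip had 4911 counts in replicate 2 and 4958 in replicate 1 (-0.08, -0.13 to -0.02, binomial adjusted p = 0.0415), with the opposite sign under spike-in scaling. The intervals of all 4 lie well inside 2-fold. With no filter on low values Gli3 and Hhip no longer passed (binomial adjusted p = 0.0699 and 0.0591), and with total-count scaling Hhip did not (binomial adjusted p = 0.0745). The other 4 did not pass: the log2 ratio was 0.05 for Ptch1 (-0.00 to 0.10), 0.16 for Gli1 (0.03 to 0.29), 0.07 for Gli2 (-0.05 to 0.20) and 0.07 for Shh (-0.18 to 0.31). Without a minimum fold Gli1 passed with total-count scaling (binomial adjusted p = 0.0463), and under spike-in scaling all 8 did, the highest binomial adjusted p being 0.00132 for Shh. The Shh interval was the widest of the 8, and Shh had the fewest counts.

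**Figure D4:**
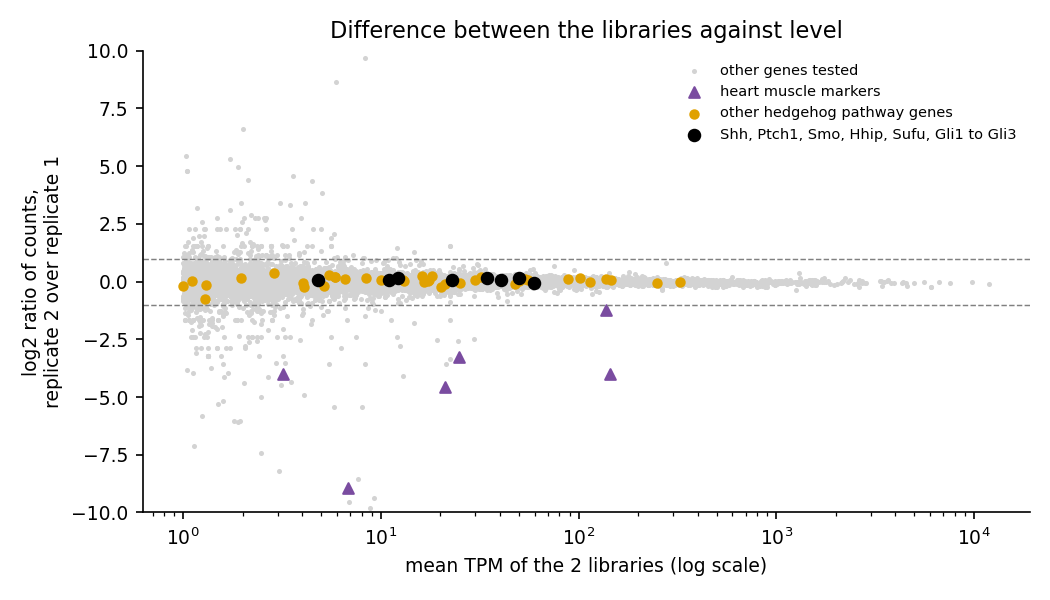
Log2 ratio of counts, replicate 2 over replicate 1, against mean TPM on a log axis for the 14870 genes tested, with dashed lines at 2-fold. The 8 tested members and the other pathway genes lie between the lines, 7 members above 0 and Hhip below it (all 8 above 0 under spike-in scaling), and the heart muscle markers lie below the lower line. Of all genes tested, 49.6% lie above 0.

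The other genes of the pathway, 41 in 4 lists, were compared between the libraries in the same way. Of these genes 38 were detected and 39 were tested, and none was called, where 1.14% of all genes were. Without a minimum fold 12 were higher and 4 lower in replicate 2, beside 11% and 11.5% of all genes tested. The median log2 ratio of the 39 was 0.07.

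Of 8 genes in the list for ligand supply, which holds Dhh beside genes that make, release or carry ligand, 6 were detected, and the median of all 8, 1.63 TPM, lay below the 4.10 TPM of all protein-coding genes. Hhat, which attaches palmitate to the ligand, was the highest, at 10.3 TPM in replicate 2 and 9.78 in replicate 1. Disp1, which releases the lipid-bearing ligand, had 7.12 TPM in replicate 2 and 6.01 in replicate 1, and Scube1, a secreted relative of the ligand carrier Scube2, had 3.39 TPM in replicate 2 and 2.35 in replicate 1. The lowest was the Dispatched relative Disp3, at 0.15 TPM in replicate 2 and 0.14 in replicate 1. Of the co-receptors, 3 of 4 were detected, with a median of 14.6 TPM. The co-receptor genes Boc, at 31.5 TPM in replicate 2 and 28.7 in replicate 1, and Gas1, at 25.04 TPM in replicate 2 and 25.2 in replicate 1, led this list, the cell surface co-receptor gene Cdon had 4.22 TPM in replicate 2 and 3.85 in replicate 1, and the endocytic receptor gene Lrp2 was the lowest, at 0.84 TPM in replicate 2 and 1.16 in replicate 1.

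All 21 genes that act at the cilium or control Gli proteins were detected, with a median of 17.2 TPM. Kinase genes that phosphorylate Gli proteins, or regulate such kinases, led them, and they act in many pathways: Prkar1a, the regulatory subunit of protein kinase A, had 331 TPM in replicate 2 and 320 in replicate 1, the casein kinase gene Csnk1a1 250.5 and 245 TPM in the same libraries, and the protein kinase A catalytic gene Prkaca 109 and 94.5 TPM. The lowest was Gpr161, a ciliary receptor that raises protein kinase A activity, at 1.14 TPM in replicate 2 and 1.08 in replicate 1. All 8 known target genes outside the 9 were detected, with a median of 43 TPM. They were led by the cyclin gene Ccnd2, at 152 TPM in replicate 2 and 138.5 in replicate 1, the mesenchymal forkhead gene Foxf1, at 146 TPM in replicate 2 and 131 in replicate 1, and the cyclin gene Ccnd1, at 119 TPM in replicate 2 and 110.4 in replicate 1. The forkhead gene Foxl1 was the lowest, at 6.41 TPM in replicate 2 and 5.32 in replicate 1. These genes also answer to other signals, so their levels say nothing by themselves about hedgehog signalling.

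**Figure D5:**
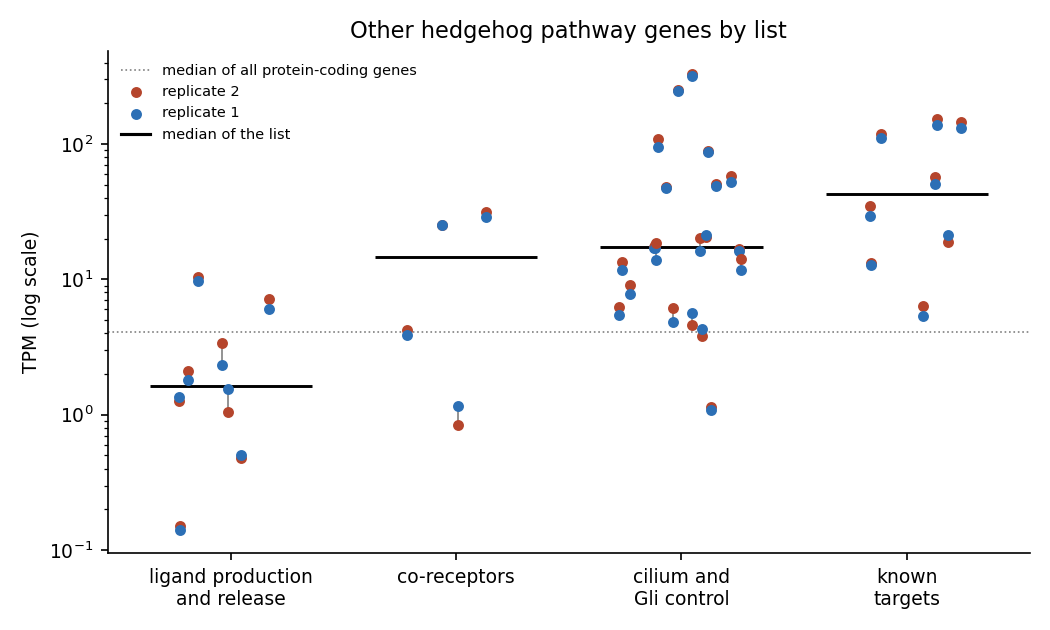
TPM on a log axis of the 41 other pathway genes by list, with a point for each library and a bar at the median of each list. The list medians are 1.63 TPM for ligand production and release, 14.6 TPM for co-receptors, 17.2 TPM for cilium and Gli control and 43 TPM for known targets, and the dotted line marks the 4.10 TPM of all protein-coding genes.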

How the data were processed

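Lung was collected on July 17 (replicate 2) and July 15 (replicate 1), RNA was taken with Ambion mirVana, and 10.0 ng of RNA above 200 nt with spike-ins went into a library, per the labels. For each library the deposited files are tables of genes and of transcripts, which per the file headers hold expected counts, TPM, posterior mean TPM, posterior SDs of counts, interval bounds of TPM and, for transcripts, the percent of the gene's TPM. The deposited read-me files name build mm10 and GENCODE M4; the sources used here give no aligner, quantification program, version or use of strand. TPM sums over spike-ins too, so mouse genes held 91.2% of TPM in replicate 2 and 89.1% in replicate 1. In all 101568 transcripts of 100 nt or more effective length was 99 nt below the length.

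Symbols, coordinates (1-based) and sequences came from GENCODE M21 on GRCm38 by unversioned identifier. Of 34 member transcripts 33 matched and 27 had the same length in both releases. Those of another length included Hhip-201, at 4582 nt in the deposited tables and 9074 nt in M21, and Hhip-202, at 909 and 1173 nt. They also included Shh-201, at 2692 and 2847 nt, and Gli1-201, at 3665 and 4057 nt. Deposited TPM rests on the deposited lengths, and levels with M21 lengths were not computed. Member levels, shares and list medians were taken from deposited TPM without a test. Expected counts were rounded, 0.5 was added for log2 ratios, and TMM sizes came from edgeR 4.0.16 in R 4.3.3. The quasi-likelihood test could not be fitted, because 1 library a side leaves no residual degrees of freedom. The binomial test (SciPy 1.17.1) covered the 14870 genes with a mean TPM of 1 or more and was tested on simulated data. The simulated counts held counting error alone and planted changes of more than 2-fold. That run therefore says nothing about small ratios or about variation between libraries beyond counting. Molecular identifiers are not mentioned by the labels, so intervals cover counting error only. Alternatives were DESeq2 1.42.0 size factors, spike-in and total-count scaling, edgeR's exact test, no low-value filter, no minimum fold, posterior means, the longest transcript's length, other detection thresholds and each library alone. Members and lists were chosen with earlier results of these data known. The text names all 9 members and the genes that overlap a member and have a mean TPM of 0.1 or more. It also names the 3 highest and the lowest of each pathway list, and every gene called in those lists (none was). Scube2 is given as well for its ratio. Marker lists are given as sums and counts for brevity, apart from the cartilage genes named beside Ihh. Genes of like pattern were not sought because 2 libraries of 1 group give no pattern. A further pathway gene was left out of the lists and is not reported here.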

Additional observations from a re-analysis of the deposited data

How the results depend on the processing

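With 33 results under 160 alternative values, 126 kept their direction, side of the threshold or value. This count includes levels and shares in each library alone, which could not count as moved. Each of 2 values always lies within 1 SD of their mean. Levels moved by more than 1 SD as follows. On mouse genes alone, a scale chosen after seeing the data, TPM was 5.31 for Shh, 44.9 for Ptch1, 55.3 for Smo, 66.4 for Hhip, 13.5 for Gli1, 12.2 for Gli2 and 25.4 for Gli3. With the longest transcript's length it was 36.4 for Ptch1, 49.3 for Hhip, 7.16 for Gli2 and 16.9 for Gli3. On complete protein-coding transcripts, also chosen after seeing the data, it was 36.2 for Ptch1, 46.9 for Hhip, 6.85 for Gli2 and 14.5 for Gli3, and shares of the Gli sum were 36.4% for Gli1, 20.5% for Gli2 and 43.2% for Gli3. With posterior means Ihh had 0.155 TPM, Gli1, Gli2 and Gli3 held 25.6%, 25.8% and 48.6% of the Gli sum, Gli2-201 held 55.0% of Gli2 and Ihh-201 75.8% of Ihh. Smo stood above Hhip with the longest length and on complete transcripts. At a detection limit of 5 TPM, 2 ligand supply genes were detected. Without a minimum fold 3347 genes were called, with the log2 ratios of Smo (0.15), Sufu (0.14), Gli3 (0.09) and Hhip (-0.08) among them. The count was 539 of 24205 genes with no filter, 106 with edgeR's exact test and 290 under spike-in scaling, where 70% of calls were higher in replicate 2 against 31.4% with TMM, and where the Hhip log2 ratio reversed to 0.27 (binomial adjusted p = 3.03e-19). The cause of these changes was not tested. Each library alone gave the same order of the 9 genes. No paired analysis was possible because the study has 1 group. Depth limits Ihh, at 6 counts in replicate 2 and 5 in replicate 1, most.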

Other observations

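The core of the Gli binding motif, GACCACCCA or its reverse complement TGGGTGGTC, was searched on both strands in the RefSeq promoter windows (GRCm38.p6, 250 bases before to 50 after each gene's start). It was found in 83 of 32851 windows (0.253%) and in 0 of the 7 windows of members, Shh and Gli1 having no entry. At that share 0 of 7 is likely for any genes, so the search says nothing about Gli binding at the members. The start of Ptch1-202, the transcript that holds most of the Ptch1 TPM, lies 1151 bases past the end of the Ptch1 window.

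Other genes overlap members and had measurable values. Gm27820, a small RNA gene of 175 nt on the strand opposite to Hhip, had 19.6 TPM from 33.3 counts in replicate 2 and 20.0 TPM from 33.95 counts in replicate 1. A930032L01Rik, on the strand of Ptch1, had 3.38 TPM in replicate 2 and 3.82 in replicate 1. Arhgap9, which shares 62 nt with Gli1 on the opposite strand, had 2.53 TPM in replicate 2 and 3.2 in replicate 1, and Gm6556, opposite to Gli3, had 0.66 TPM in replicate 2 and 0.93 in replicate 1. The counts of Gm6556 and Gli3 are not whole but add up to a whole number in each library, as do those of Gm27820 and Hhip. Some reads were thus divided between these genes too.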
